A study of Homo sapiens with 9 samples.

Results

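The 150 brightest of the genes with a LINC number were followed across 3 groups of arrays. They were the named genes of the deposited table whose symbol was LINC and digits only, with the probe set of the highest mean over the 9 arrays standing for each gene, and the 150 of highest mean kept out of 452 such genes. The platform annotation named 14778 genes in all, of which 1368 were lncRNA genes. All 452 LINC genes carried the lncRNA class in the RefSeq gene table. The genes were chosen by their mean log2 signal over the 9 arrays, so their brightness is a description and was not tested, while differences between groups were not used to choose them.

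The study measured total RNA of HL-60 clone 15, a subclone of an established human promyelocytic leukaemia line from which eosinophil-like cells can be grown. They had been transduced with a lentiviral construct for RhoH or for GFP, each switched on by 4-hydroxytamoxifen (4-OHT). The 9 arrays fell into 3 groups of 3 replicates: RhoH cells without 4-OHT (uninduced RhoH), RhoH cells with 100 nM 4-OHT (induced RhoH) and GFP cells with 100 nM 4-OHT. The design text names treated GFP cells as a further control. No GFP cells without 4-OHT were analysed here, so the drug, the construct and the transduced population cannot be told apart in part of the comparisons.

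Long intergenic noncoding RNAs are transcripts made by RNA polymerase II, usually capped and often spliced, from regions between protein-coding genes, and they carry no long open reading frame. LINC with a number is a placeholder name for such a gene whose function was not settled when it was named. Many are made in few cell types and at low levels, and some act on genes beside their own locus, so the flanking genes are described below as well.

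RHOH, the gene of the construct, checks the labels. At probe set 16966214 the arrays labelled GFP were highest (5.93 ± 0.02, mean log2 signal ± SD, n = 3), those labelled induced RhoH lay at 5.59 ± 0.14 and those labelled uninduced RhoH at 5.21 ± 0.06. The signal therefore did not peak in the induced arrays. Whether the labels or the probe set account for this was not tested, and every direction given here follows the labels. Of the promyelocytic genes MPO, PRTN3, AZU1, CTSG and MYB, all 5 measured had a mean of 10.61 or more, while the 4 measured markers of other cell types (NCAM1, PPBP, EPCAM and ALB) lay between 4.13 and 5.38. The 9 arrays had medians of 5.43 to 5.55 over all probe sets.

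The members spanned mean log2 signals of 5.36 to 12.08 with a median of 5.996. Of the 150, 51 lay above the median of all named genes, which was 6.42. The 5 of highest mean were LINC00987 (12.08), LINC01347 (11.61), LINC00999 (10.93), LINC01000 (10.92) and LINC01061 (10.75). None of the 5 was called in any comparison, and their log2 fold changes ran from -0.16 for LINC00999 against GFP to 0.16 for LINC00987 against GFP, both in induced RhoH. At the other end, LINC00229, LINC02649 and LINC00920 were the last 3 kept, with means of 5.37, 5.36 and 5.36, and LINC00235, LINC01530 and LINC00640 were the first 3 left out, with 5.35, 5.35 and 5.33. The order by signal depends on each probe set's own affinity and is no order of abundance.

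The probe set chosen mattered for the signal of some members. Of the 150, 129 had 1 probe set and 21 had several. Within those 21 the lowest and the highest probe set differed by a median of 1.12 on the log2 scale, and by over 1 in 13 of them. LINC00987 had the widest gap, 6.44, between 12.08 at the probe set used (17117554) and 5.64 at the other (16748119). The other probe sets had means of 9.76 and 8.71 for LINC01347, 8.32 and 6.28 for LINC00999, and 10.36 and 9.18 for LINC01000. The place of these genes among the brightest therefore rests on the probe set used, and where the probe sets lie in the genome was not checked. All probe sets of a gene had the same sign of fold change in 13 of the 21 genes with 4-OHT in RhoH cells, in 14 for induced RhoH against GFP and in 12 for uninduced RhoH against GFP. None of the 16 members called in any comparison had a second probe set.

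Replicate arrays of GFP cells agreed more closely over the members than those of RhoH cells. The SD over members of the deviations from the group mean was 0.096 to 0.106 on the 3 GFP arrays, 0.124 to 0.201 on the uninduced and 0.165 to 0.222 on the induced RhoH arrays. The GFP arrays were closest over all named genes too, at 0.09 to 0.096. The uninduced RhoH arrays had 0.13 to 0.206 and the induced 0.162 to 0.204 there. When limma estimated a weight for each array, uninduced RhoH replicate 1 and induced RhoH replicates 1 and 3 stood apart with 0.267, 0.334 and 0.275, against 1.25 to 2.61 for the other 6. The median SD of a member within its group was 0.093 in GFP, 0.144 in uninduced RhoH and 0.158 in induced RhoH cells. An SD over 0.5 was found for 7 members in induced RhoH, 2 in uninduced RhoH and 0 in GFP cells. LINC00597 had the highest, 0.68 in induced RhoH, where its log2 signal was 5.22, 5.48 and 4.2 in replicates 1, 2 and 3. LINC01004 and LINC03009, named here for their spread after their values were seen, were also lowest of all 9 arrays on induced RhoH replicate 3, at 5.64 and 7.85, against 6.77 and 8.55 on replicate 1.

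**Figure D1:**
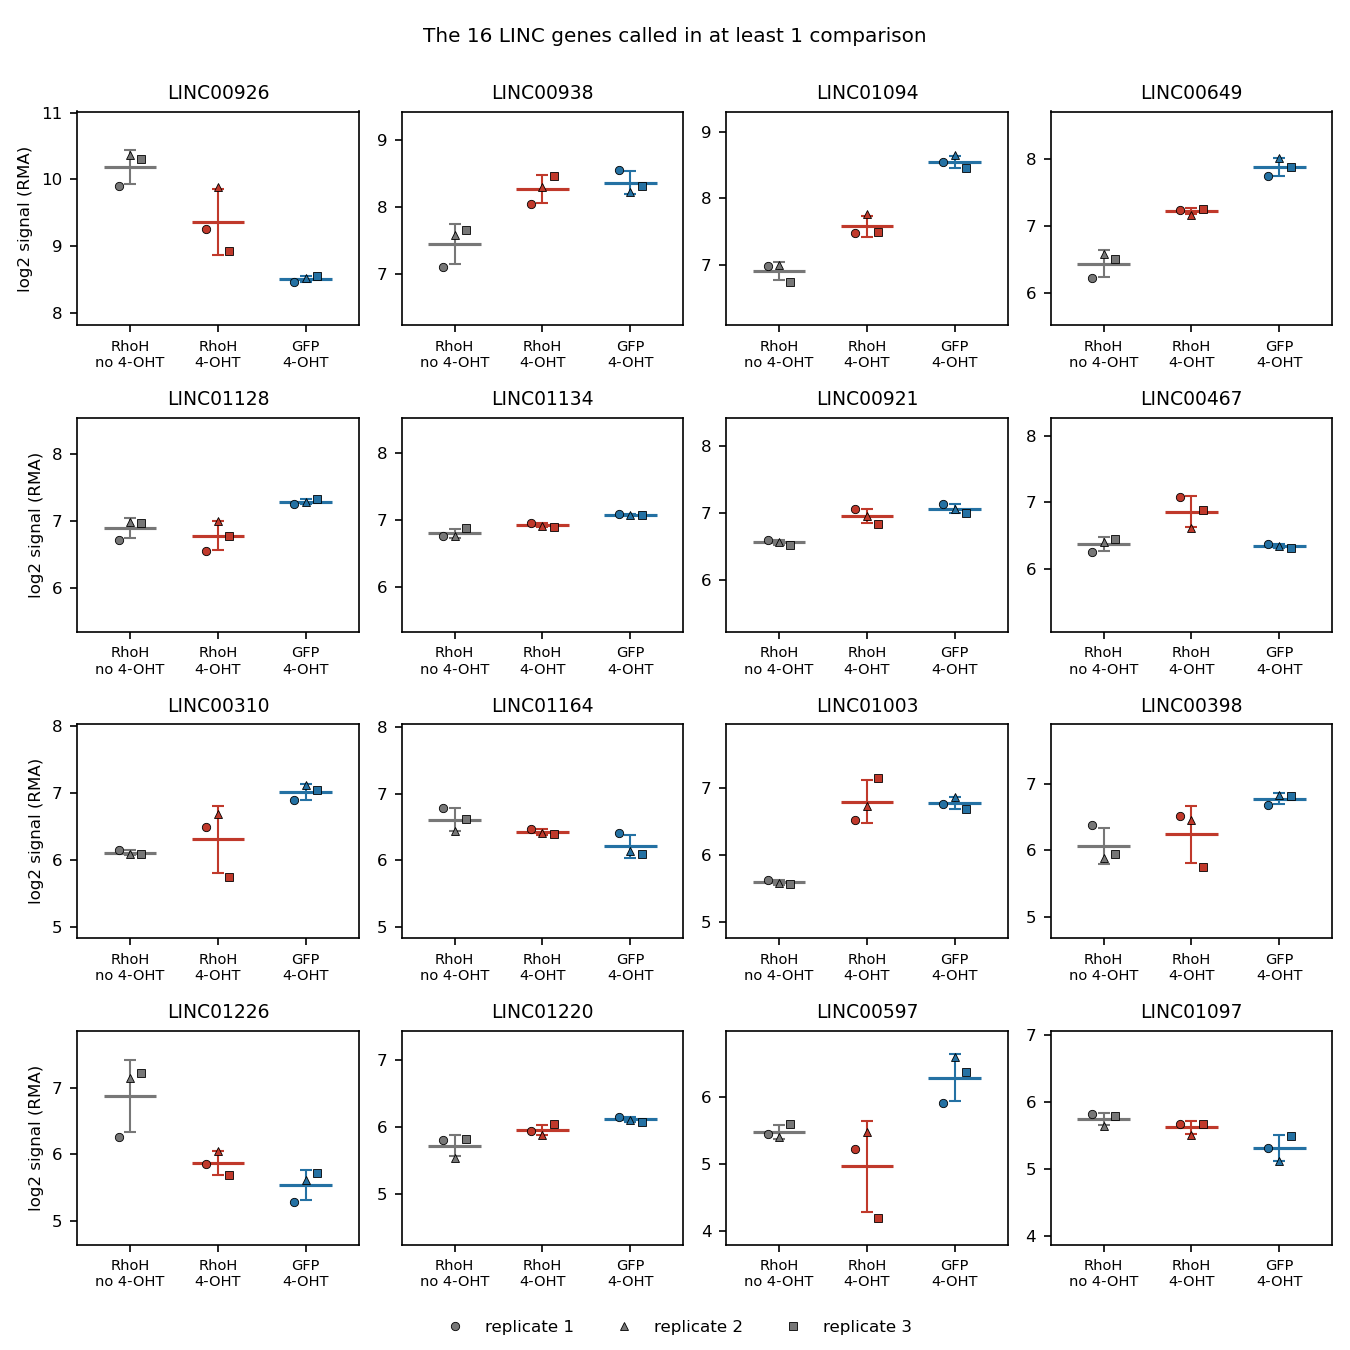
Log2 signal (vertical axes, each spanning 3.2 log2 units) of the 16 LINC genes called in at least 1 comparison, by group, with a symbol for each replicate array and the mean ± SD of 3 arrays. LINC01094 and LINC00649 step up from uninduced RhoH through induced RhoH to GFP without overlap, LINC00926 steps down, and LINC00467 is highest in induced RhoH.

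RhoH cells with and without 4-OHT were compared first, and these differ in the drug and in the switching of the construct together. Of the LINC genes, 6 rose and LINC01226 fell. Called means a limma adjusted p under 0.05 over all 14778 genes, and 7 of the 150 (4.67%) were called against 3.78% of all named genes (3.02% higher and 0.751% lower). LINC01003 rose 2.31-fold and LINC01226 fell 2.01-fold, and the other 5 rose 1.31- to 1.76-fold. Over all 150 the median log2 fold change was -0.03, against -0.004 over all named genes, with 68 positive and 82 negative values. It was 0.03 without uninduced RhoH replicate 1. Without adjustment, 17 members and 14.5% of all named genes had a p under 0.05. Of the 5 promyelocytic genes only CTSG was called, and it fell (-0.83, adjusted p = 0.00703). MPO (-0.26), MYB (-0.38), PRTN3 (-0.15) and AZU1 (0.05) did not pass. Whether the fall of CTSG has a part in the LINC values was not tested.

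LINC01003 (probe set 17053769) had log2 signals of 5.63, 5.57 and 5.56 in the 3 uninduced and 6.52, 6.73 and 7.14 in the 3 induced RhoH arrays. The groups lay well apart, and the induced arrays spread more widely. The log2 fold change was 1.21 (SE 0.14, limma adjusted p = 0.00117). LINC00649 (probe set 16922385) gave 6.22, 6.59 and 6.51 without and 7.25, 7.17 and 7.25 with 4-OHT, a rise of 0.78 (SE 0.11, adjusted p = 0.00417). The induced arrays of LINC00649 were nearly alike and all above the uninduced ones. LINC01094 (probe set 16968237) gave 6.99, 7.0 and 6.76 without and 7.49, 7.77 and 7.50 with 4-OHT, a rise of 0.67 (SE 0.11, adjusted p = 0.00808), again with no overlap.

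LINC00938 rose from 7.11, 7.58 and 7.66 to 8.04, 8.30 and 8.46 (log2 fold change 0.82, SE 0.16, adjusted p = 0.0238). LINC00921 rose less, from 6.59, 6.57 and 6.51 to 7.05, 6.95 and 6.84 (0.39, SE 0.09, adjusted p = 0.0346). LINC00467, reported elsewhere as a target of MYCN in neuroblastoma, rose from 6.25, 6.41 and 6.45 to 7.07, 6.62 and 6.89 (0.49, SE 0.12, adjusted p = 0.0491). For each of these the lowest induced array lay above the highest uninduced one. LINC01226 fell from 6.26, 7.15 and 7.21 to 5.85, 6.05 and 5.69 (-1.01, SE 0.23, adjusted p = 0.0439), with uninduced replicate 1 well below the other two. LINC00926, with 9.90, 10.37 and 10.30 without and 9.25, 9.89 and 8.93 with 4-OHT, was at -0.83 and did not pass (adjusted p = 0.0706).

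Of these calls, those of LINC01003 and LINC00649 held in each of the 19 alternatives run for single genes, and that of LINC01094 in all but the fit on the 6 arrays compared (adjusted p = 0.0537). The number of called members, 7 here, was 2 in that fit, 3 with all probe sets tested or without GFP replicate 3, 4 without GFP replicate 1 or 2, induced RhoH replicate 1, or uninduced RhoH replicate 2 or 3, 5 without induced RhoH replicate 3 and 6 without both RhoH arrays numbered 1. Of the 7, 4 were among those 5 and 5 among those 6, where LINC00310 and LINC00294 were the added genes. The share of all named genes called in these fits is not given beside them, so the changes in count are no result about LINC genes. The call of LINC00938 was lost in 5 of the 19 alternatives (limma adjusted p up to 0.0978). Those of LINC01226, LINC00921 and LINC00467 were lost in 10 (up to 0.164), 13 (up to 0.142) and 14 (up to 0.192).

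The sequence before and at the start of transcription is shown for the 4 members called in either comparison of induced RhoH that had an entry in a RefSeq promoter table (GRCh38.p14). The table held 109 of the 150 members and 9 of the 16 called ones. Each line runs 5′ to 3′ on the gene's strand, from 250 bases before to 50 after the start of the gene, and capitals mark matches to a motif searched on both strands. The windows are chr7:152463874-152464173 on the plus strand for LINC01003, chr4:78645744-78646043 on the plus strand for LINC01094, chr12:45727872-45728171 on the minus strand for LINC00938 and chr15:77225355-77225654 on the minus strand for LINC00597.
LINC01003: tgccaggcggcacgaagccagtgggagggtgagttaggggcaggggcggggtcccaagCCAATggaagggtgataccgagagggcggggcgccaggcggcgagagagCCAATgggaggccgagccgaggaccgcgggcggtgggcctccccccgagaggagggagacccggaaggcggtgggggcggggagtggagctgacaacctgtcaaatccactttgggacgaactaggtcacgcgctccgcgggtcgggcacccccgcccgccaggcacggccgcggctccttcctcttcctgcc
LINC01094: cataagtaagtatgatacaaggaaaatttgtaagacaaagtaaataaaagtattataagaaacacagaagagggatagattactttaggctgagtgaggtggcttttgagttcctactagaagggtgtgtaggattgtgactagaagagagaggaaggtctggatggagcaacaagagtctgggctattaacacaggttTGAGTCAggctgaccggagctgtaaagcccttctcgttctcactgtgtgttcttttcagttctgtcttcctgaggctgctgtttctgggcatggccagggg
LINC00938: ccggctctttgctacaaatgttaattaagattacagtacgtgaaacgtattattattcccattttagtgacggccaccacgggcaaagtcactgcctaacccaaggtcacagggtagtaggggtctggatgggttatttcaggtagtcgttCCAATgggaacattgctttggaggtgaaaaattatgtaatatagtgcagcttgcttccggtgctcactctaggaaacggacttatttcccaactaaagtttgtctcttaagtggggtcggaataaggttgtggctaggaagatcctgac
LINC00597: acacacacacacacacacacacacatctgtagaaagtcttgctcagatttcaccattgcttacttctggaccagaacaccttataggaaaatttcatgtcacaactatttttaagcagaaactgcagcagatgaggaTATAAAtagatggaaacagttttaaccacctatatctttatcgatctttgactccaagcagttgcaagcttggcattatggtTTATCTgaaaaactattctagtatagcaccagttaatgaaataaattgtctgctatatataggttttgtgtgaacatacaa
The TATA box was searched as TATAAA. The box bound by the factor NF-Y was searched as CCAAT. The site of the AP-1 factors, which FOS is part of, was searched as TGANTCA. The site of the GATA factors of blood cells was searched as AGATAA. The site of PU.1, a factor of myeloid cells, was searched as GAGGAAGT, and that of other ETS factors as CCGGAAGT. The full palindromic oestrogen response element was searched as well. No motif contains another.

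The 4 windows differed in composition. That of LINC01003 was 71.7% G and C with 28 CpG dinucleotides and held the CCAAT box at 2 places. Those of LINC01094, LINC00938 and LINC00597 were 43.7%, 44.3% and 35.3% G and C with 2, 9 and 1 CpG. LINC01094 held an AP-1 match, LINC00938 a CCAAT box, and LINC00597 a TATA box and, on the opposite strand, a GATA match. Over the 109 members with an entry the median was 54.3% G and C and 8 CpG, against 62.7% and 22 for protein-coding genes. CCAAT was found in 39.4% of the members' windows and 35.7% of all 27305 in the table, AP-1 in 11% and 7.76%, TATAAA in 14.7% and 12%, AGATAA in 13.8% and 10.5%, CCGGAAGT in 4.59% and 4.44%, and GAGGAAGT in 1.83% and 2.54%. The oestrogen response element was in 0 of the 109 members' windows and in 0.0659% of all. A match describes letters and is not a binding site.

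**Figure D2:**
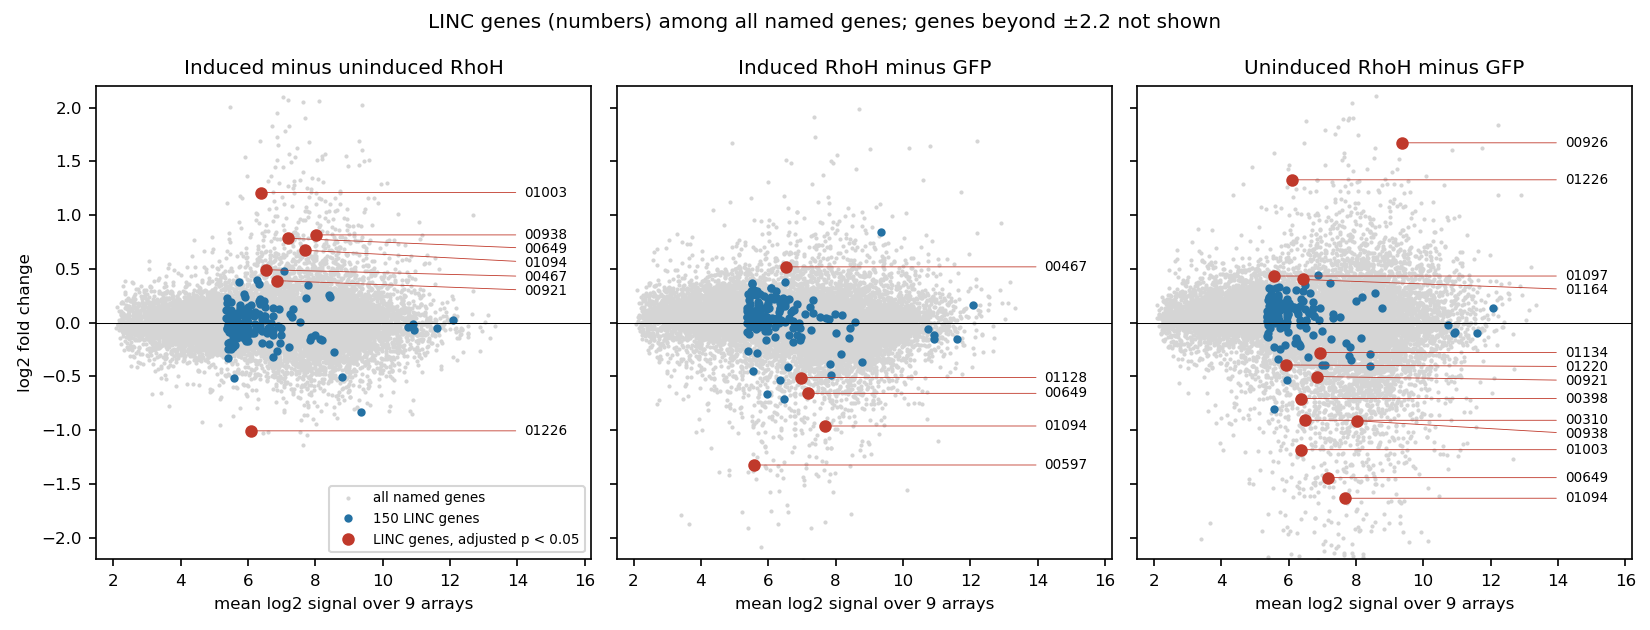
Log2 fold change (vertical axis) against mean log2 signal over the 9 arrays (horizontal axis) for all 14778 named genes (grey), the 150 LINC genes (blue) and those called (red, labelled by LINC number), in the 3 comparisons. The called LINC genes number 7, 5 and 13 from left to right.

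Induced RhoH was next compared with GFP cells, where the drug is the same and the construct and cell population differ. LINC01094, LINC00649, LINC00597 and LINC01128 were lower in induced RhoH cells and LINC00467 was higher. These were 5 of 150 (3.33%), against 4.49% of all named genes (1.74% higher and 2.75% lower). Without adjustment, 19 members and 16.4% of all genes had a p under 0.05. The median over the 150 was 0.06, against 0.03 over all named genes. The promyelocytic list moved between these groups as well, with all 5 measured genes higher in induced RhoH than in GFP (median log2 fold change 1.33) and all 5 higher in uninduced RhoH than in GFP (1.28). Of 4 eosinophil genes 2 were measured, and both were higher than in GFP in each RhoH group (median 1.77 and 2.24). Whether such a difference between the populations has a part in the LINC values was not tested.

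LINC01094 gave 8.54, 8.65 and 8.46 in GFP cells, all above its induced RhoH values, a difference of -0.96 (SE 0.11, limma adjusted p = 0.000958), or 1.95-fold lower in induced RhoH. LINC00649 gave 7.75, 8.01 and 7.88 in GFP cells, a difference of -0.66 (SE 0.11, adjusted p = 0.00936). Both genes thus lay lower in induced RhoH than in GFP cells while being higher than without 4-OHT. LINC00597 gave 5.91, 6.60 and 6.38 in GFP cells, a difference of -1.32 (SE 0.29, adjusted p = 0.0318), where induced RhoH replicate 3 alone was under 5. Without that array the difference was smaller but still called (-0.94, adjusted p = 0.0292). LINC01128 gave 7.25, 7.29 and 7.33 in GFP and 6.56, 7.0 and 6.78 in induced RhoH cells (-0.51, SE 0.12, adjusted p = 0.0446).

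LINC00467 gave 6.38, 6.34 and 6.31 in GFP cells, close to its uninduced RhoH values and below each induced array (0.52, SE 0.12, adjusted p = 0.0350). It was the 1 member whose call had one sign against uninduced RhoH and against GFP, as did 18 of all named genes (0.122%). The 2 comparisons share the induced arrays. Its call with 4-OHT was lost in 14 of the 19 alternatives (adjusted p up to 0.192) and its call against GFP in 9 (up to 0.146). Of the fits that left out 1 array, the fit without induced RhoH replicate 2 kept both calls and the others gave 0 such members.

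Only LINC01094 kept its call against GFP in each of the 19 alternatives, and LINC00649 lost its call without GFP replicate 2 or 3 (adjusted p up to 0.0597). LINC00597 lost its call in 8 of the 19 (limma adjusted p up to 0.151) and LINC01128 in 9 (up to 0.17). The number of called members, 5 here, was 2 in the fit on the 6 arrays, with all probe sets tested and without uninduced RhoH replicate 2 or 3 or GFP replicate 1, 3 without induced RhoH replicate 1, 1 without GFP replicate 2 or 3, and 4 without induced RhoH replicate 3 or without both RhoH arrays numbered 1. Without induced RhoH replicate 3, 3 of the 5 kept their call and LINC00926 was added. These counts, too, stand without the share of all named genes called in each fit and are no result about LINC genes.

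The last comparison, uninduced RhoH against GFP with 4-OHT, differs in construct and in drug together. LINC01094, LINC00649 and LINC01003 had the largest differences among 9 members lower in uninduced RhoH, and LINC00926 and LINC01226 among 4 higher. The 13 called were 8.67% of the members, against 15.3% of all named genes (6.01% higher and 9.27% lower). Without adjustment, 28 members and 25.8% of all genes had a p under 0.05. The median over the 150 was 0.08, against 0.05 over all named genes. LINC01094 was 3.10-fold lower (log2 fold change -1.63, SE 0.11, limma adjusted p = 7.12e-06), LINC00649 2.72-fold lower (-1.44, adjusted p = 1.87e-05) and LINC01003 2.27-fold lower (-1.18, adjusted p = 0.000303). LINC00938 (-0.91) and LINC00921 (-0.50) were lower as well.

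All 5 of these are among the 6 that rose with 4-OHT in RhoH cells, and the 2 comparisons share the uninduced arrays. LINC01003 gave 6.76, 6.86 and 6.69 in GFP cells, within the range of its induced RhoH arrays (difference 0.03, SE 0.14, adjusted p = 0.947). LINC00938 gave 8.55, 8.22 and 8.31 and LINC00921 7.13, 7.06 and 6.99, and both overlapped their induced RhoH values. For these 3 genes the uninduced arrays stood apart from the other 6 arrays.

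LINC00926, known as a transcript of B lymphocytes, was 3.19-fold higher in uninduced RhoH, with 8.47, 8.53 and 8.55 in GFP cells (1.67, SE 0.22, adjusted p = 0.000532). Its induced RhoH arrays lay between the other groups without overlap, at 0.84 above GFP (adjusted p = 0.0608). LINC01226 was 2.51-fold higher in uninduced RhoH (1.33, SE 0.23, adjusted p = 0.00343), with 5.29, 5.62 and 5.73 in GFP cells, and its induced arrays overlapped those of GFP. The other 2 higher were LINC01097 (0.43) and LINC01164 (0.40), whose fold changes were 1.35 and 1.32.

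The other 4 lower were LINC00310 (-0.91), LINC00398 (-0.71), LINC01220 (-0.40) and LINC01134 (-0.28). LINC00310 gave 6.15, 6.09 and 6.08 in uninduced RhoH and 6.89, 7.12 and 7.04 in GFP cells, while the induced arrays spread from 5.74 to 6.69. LINC00398 gave 6.38, 5.89 and 5.95 against 6.68, 6.83 and 6.82, with induced arrays from 5.75 to 6.51. In both, induced RhoH replicate 3 was lowest of the 9 arrays. Of the 13 calls, those of LINC01094, LINC00649, LINC01003, LINC00926, LINC00938, LINC00921 and LINC01226 held in each of the 19 alternatives. Those of LINC00310, LINC01220, LINC01097, LINC01134, LINC00398 and LINC01164 were lost in 2, 4, 6, 7, 8 and 8 alternatives, in that order. The count of 13 was 7 without GFP replicate 2, 8 without GFP replicate 3, 16 without induced RhoH replicate 3, 15 without both RhoH arrays numbered 1 and 33 with array weights. The share of all named genes called in these fits is not given here, so these counts are no result about LINC genes.

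In all, 16 of the 150 members were called in at least 1 comparison, LINC01094 and LINC00649 in all 3, and 134 in none. The same was not counted over all named genes, so these numbers describe the members only. Of all named genes 3.78%, 4.49% and 15.3% were called in the 3 comparisons in order, and of the members 4.67%, 3.33% and 8.67%. By signal, the 50 brightest members held 5, 4 and 7 of the calls in the 3 comparisons in order, the next 50 held 2, 0 and 5, and the last 50, with means of 5.36 to 5.73, held 0, 1 and 1. RMA compresses differences of low signals, so fewer calls among dim genes do not show that these RNAs changed less. No overlap between the arrays of the groups compared was found for 18 members (12%) with 4-OHT, 25 (16.7%) for induced RhoH against GFP and 49 (32.7%) for uninduced RhoH against GFP, where the shares over all named genes were 14.5%, 22.5% and 37.3%.

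Other noncoding genes give a scale for these counts. Of the 302 dimmer LINC genes, 1, 3 and 5 were called in the 3 comparisons (0.331%, 0.993% and 1.66%). Other lncRNA genes were split by symbol only. Of 472 with -AS (antisense), 5, 10 and 37 were called (1.06%, 2.12% and 7.84%). Of 34 ending in HG or starting with SNHG (host genes of small RNAs), 1, 2 and 9 were called (2.94%, 5.88% and 26.5%). GAS5 is thus not among these 34. Of the 410 remaining lncRNA genes, 3, 9 and 33 were called (0.732%, 2.2% and 8.05%). Protein-coding genes were called in 4.50%, 5.13% and 17.6%. The classes differ in signal, with a median mean signal of 4.44 for the dimmer LINC genes, 5.46 for antisense genes and 6.80 for protein-coding genes.

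**Figure D3:**
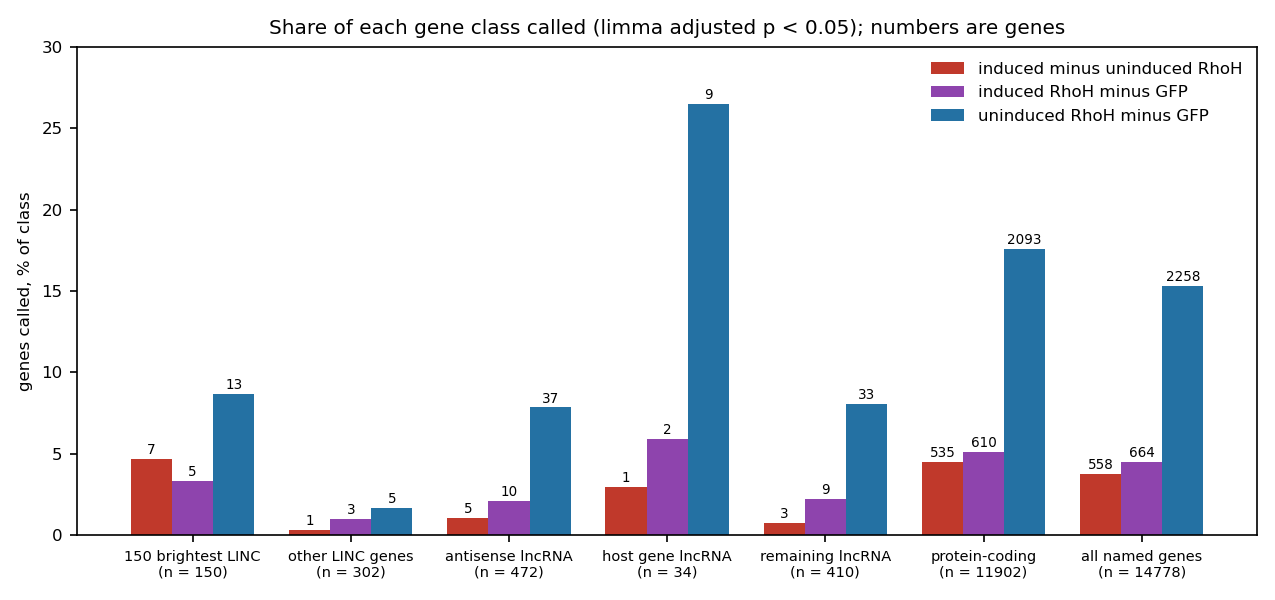
Percent of each gene class called at a limma adjusted p under 0.05 (vertical axis, from 0) in the 3 comparisons, with the number of genes above each bar. The 150 brightest LINC genes show 7, 5 and 13 genes. Genes named as hosts of small RNAs have the highest share for uninduced RhoH against GFP, 9 of 34.

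A list of 42 lncRNA genes known from myeloid cells, stress or growth, none with a plain LINC number, had 22 measured. With 4-OHT in RhoH cells GAS5, a growth-arrest gene that hosts small nucleolar RNAs, fell from 10.32 ± 0.10 to 9.73 ± 0.21 (SD, n = 3, limma adjusted p = 0.0199), and FGD5-AS1 rose from 8.33 ± 0.21 to 8.82 ± 0.12 (adjusted p = 0.0449). For uninduced RhoH against GFP 7 were higher and 2 lower. The 7 were GAS5 (0.66), SNHG5 (0.89), SNHG8 (0.91), SNHG15 (1.03), SNHG16 (0.41), EPB41L4A-AS1 (0.67) and DLEU1 (0.40), and the 2 were MIR17HG (-1.37), the host of the miR-17 cluster, and FGD5-AS1 (-0.45). GAS5 and the 4 SNHG genes host small nucleolar RNAs, which guide the modification of ribosomal RNA. SNHG8 alone of the 22 was called for induced RhoH against GFP (0.56, adjusted p = 0.0328).

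Flanking genes were taken by gene midpoints in the RefSeq gene table, as the nearest measured protein-coding gene on each side, at any distance. The 150 members had 298 such pairs with 269 distinct genes. Of these genes 4.83%, 5.20% and 21.9% were called in the 3 comparisons, against 4.50%, 5.13% and 17.6% of all protein-coding genes. Across the pairs the fold changes of member and flanking gene had Pearson correlations of 0.117, 0.136 and 0.138 and Spearman correlations of 0.116, 0.095 and 0.103, as a description over pairs that share arrays and partly share genes. Member and flanking gene had the same sign in 167, 154 and 173 of the 298 pairs.

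Of the 14 genes flanking members called with 4-OHT, 1 was called, and 7 of the 14 pairs had the same sign. For induced RhoH against GFP these were 1 of 10 genes and 5 of 10 pairs. KMT2C, a histone H3 lysine 4 methyltransferase gene, flanks LINC01003 and was called in all 3 comparisons. KMT2C gave 10.64, 10.73 and 10.79 in uninduced RhoH, 11.44, 11.52 and 11.08 in induced RhoH and 11.83, 11.88 and 11.82 in GFP cells. It rose by 0.63 with 4-OHT (SE 0.12, limma adjusted p = 0.0154) and was lower than in GFP by -0.50 in induced RhoH (adjusted p = 0.0414) and by -1.12 in uninduced RhoH (adjusted p = 0.00012). LINC01003 moved the same way in the first and last of these, and did not pass in the comparison of induced RhoH with GFP. ACTR3B on the other side was higher in uninduced RhoH than in GFP (0.58, adjusted p = 0.0164).

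LINC00597 lies within or across PEAK1, a pseudokinase gene, in the RefSeq table, and 16 of the 150 members overlapped the span of a protein-coding gene in this way. PEAK1 gave 7.65, 8.04 and 7.67 in induced RhoH and 8.69, 8.91 and 8.83 in GFP cells, a difference of -1.02 (adjusted p = 0.00178), and was at -0.08 with 4-OHT. The positions of the probes were not used here, so whether either gene's probes also bind the other's RNA was not tested.

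For uninduced RhoH against GFP, 6 pairs of a called member and a called flanking gene had the same sign and 2 the opposite. Over all members, called or not, a called flanking gene had the same sign in 35 pairs and the opposite in 30. Of the genes flanking called members 33.3% were called, 8 of 24, against 21.9% of those flanking all members. The same-sign flanking genes were KMT2C, BMP2K beside LINC01094 (-0.70), MEFV, the pyrin gene, beside LINC00921 (-1.29), ALOX5AP of leukotriene synthesis beside LINC00398 (-0.84), the AP-1 gene FOS beside LINC01220 (-1.48) and BNIP3 beside LINC01164 (0.83). The opposite ones were ACTR3B and C1orf174, which was higher (0.60) beside LINC01134. ALOX5AP also rose with 4-OHT (0.55, limma adjusted p = 0.00360), while LINC00398 was at 0.17 and did not pass (adjusted p = 0.828).

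LINC00649 and LINC00310 stand next to each other among the measured genes, 1 of 7 such pairs of members. LINC00649 was lower by -1.44 and LINC00310 by -0.91 in uninduced RhoH than in GFP. With 4-OHT in RhoH cells LINC00649 rose by 0.78 and LINC00310 was at 0.20 (limma adjusted p = 0.785). The nearest measured protein-coding genes on either side, ITSN1 and RCAN1, were not called in any comparison. In the other 6 pairs of adjacent members 1 gene, LINC01134, was called in any comparison.

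**Figure D4:**
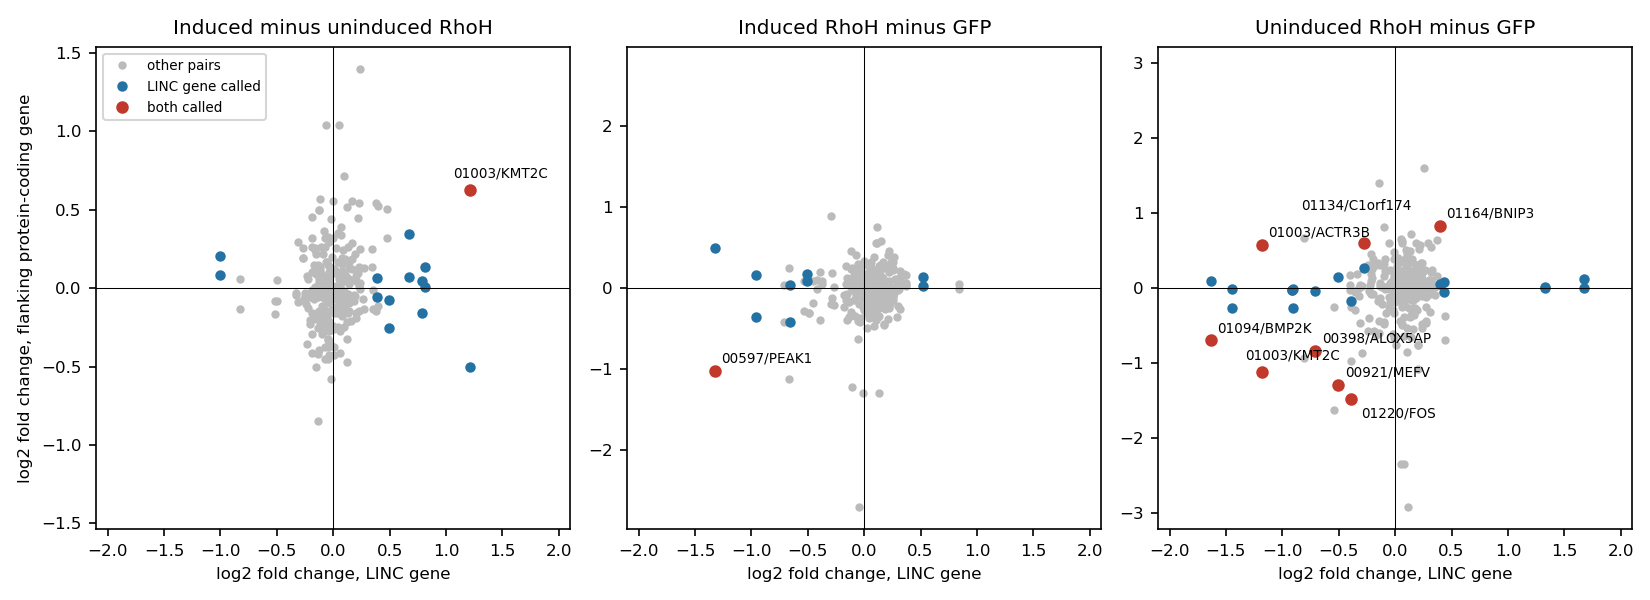
Log2 fold change of the flanking protein-coding gene (vertical axis) against that of the LINC gene (horizontal axis) for 298 pairs in the 3 comparisons; blue points have a called LINC gene, red points have both called and are labelled LINC number/flanking gene. The pair of LINC01003 and KMT2C is red in the first and last panels, and the same sign is found in 167, 154 and 173 of the pairs from left to right.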

How the data were processed

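Total RNA of 9 samples was profiled on Affymetrix whole-transcript arrays. A single table deposited by the authors holds log2 signals of 43550 probe sets. The tools that the submitters' processing notes list are RMA, limma and Affymetrix Power Tools, with no version, and the genome build is not given in the sources used here. The RMA method corrects background, quantile-normalizes and summarises probes, and compresses low signals. No further normalization was applied.

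The platform annotation gave 1 symbol for 15659 probe sets and none or several for 27891. The RefSeq table (GRCh38.p14) matched by Entrez identifier and changed 0 symbols. One probe set per gene, the brightest, left 14778 genes. Groups and replicates came from the sample titles. limma 3.58.1 in R 4.3.3 was fitted with 3 group means over 9 arrays (6 residual and 3.86 prior degrees of freedom), with Benjamini-Hochberg adjustment within a comparison, and was tested on simulated data. Adjusted p-values are limma's. A two-sided exact permutation test of 3 arrays against 3 cannot go below 0.1 and was not used. Replicates are called biological in the design text, without saying whether they are separate cultures, so p-values measure the spread between these samples. The number of arrays limits the precision.

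Named in the text are called members (up to 12 each way per comparison), members called in both comparisons of induced RhoH, the 5 brightest, those beside rank 150, flanking genes and called genes of the lncRNA list. Members, lists and tests were chosen with earlier results of these data known. Alternatives were other samples in the fit, weights, normalizations, filters, probe set rules, thresholds, a replicate block and arrays left out.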

Additional observations from a re-analysis of the deposited data

How the results depend on the processing

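Counts of called members are given for 4-OHT in RhoH cells (7 in the main analysis), induced RhoH against GFP (5), uninduced RhoH against GFP (13) and those called against both other groups with one sign in induced RhoH (1). In the fit on the 6 arrays compared the first and second counts were 2 and 2, with 190 and 560 genes called in all. With all probe sets tested, where more features are adjusted for, the first, second and last were 3, 2 and 0. With array weights the third was 33 and the last 0. The last was also 0 after quantile normalization again, with the replicate block and without both RhoH arrays numbered 1. Leaving out 1 array at a time gave 3 to 5 for the first count, 1 to 7 for the second, 7 to 16 for the third and 0 to 1 for the last. Apart from the numbers of features and arrays used, the cause was not tested. For most of these fits the share of all named genes called is not given, so the counts are no result about LINC genes. Counts under the other alternatives stayed within 1.5 times, and no log2 fold change of a called member changed sign in any alternative. Symbols as the platform annotation gives them chose the same 150 genes. The replicate numbers were not taken to pair the samples, since not every same-numbered pair deviated together over all named genes. Same-numbered arrays of the 2 RhoH groups had deviations correlated at r = 0.543, 0.368 and 0.065 over all named genes, and at 0.515, 0.364 and 0.154 over the 150 members, for numbers 1, 2 and 3. The uninduced and induced RhoH arrays numbered 1 had the highest medians of all arrays. These were 6.189 and 6.159 over the members and 5.552 and 5.551 over all probe sets. Whether these arrays share an effect of the replicate was not tested. With the replicate block the 4 counts were 7, 6, 15 and 0, and all named genes called with 4-OHT in RhoH cells were 684 instead of 558. In that fit LINC00467 lost its call with 4-OHT (adjusted p = 0.0589), LINC00926 was called with 4-OHT and for induced RhoH against GFP, and LINC00294 and LINC01128 were added for uninduced RhoH against GFP. Low signals limit what can be seen, since only 51 of the 150 members lie above the median of all named genes.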

Other observations

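LINC00173, known from granulocyte development and named here after its values were seen, was higher in both RhoH groups than in GFP cells without passing the threshold. Its log2 signal was 6.67, 6.52 and 6.61 in uninduced RhoH, 6.52, 6.52 and 6.83 in induced RhoH and 6.14, 6.41 and 6.20 in GFP cells. The differences from GFP were 0.35 (limma adjusted p = 0.0666) and 0.37 (adjusted p = 0.110), with no overlap of arrays in either. It was called for uninduced RhoH against GFP in the fit on the 6 arrays, with array weights, after quantile normalization again, separately with arrays centred on their median, without induced RhoH replicate 3 and at an adjusted p under 0.1. Its other probe sets, at means of 5.07 and 5.03, were at log2 fold changes of -0.12 and -0.08 for uninduced RhoH against GFP, the opposite sign, and at 0.09 and 0.02 for induced RhoH against GFP.

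LINC01061 had 7 probe sets, of which 5 had means of 10.67 to 10.75 and the others 9.69 and 7.65. LINC01623 had 7 as well, of which 4 held the same rounded mean of 5.91.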
